A study of Mus musculus with 12 samples.

Results

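The 10 genes described here encode the Rel subunits of canonical NF-kB, the IkB proteins that hold these subunits back or act with them, the feedback inhibitor A20 and the adaptor TRAF1. They were chosen by name, and all 10 were found by Entrez ID among the 9842 genes of the expression table: Nfkb1, Rela, Rel, Nfkbia, Nfkbib, Nfkbie, Nfkbid, Bcl3, Tnfaip3 and Traf1. The study asked what the histone demethylase LSD1, encoded by Kdm1a, does in mouse B cells. RNA was sequenced from 4 groups of 3 libraries, all from female C57BL/6J mice. The eMZB_KO and eMZB_WT groups are marginal zone B cells derived ex vivo from LSD1-knockout and wild-type mice: splenic transitional B cells were kept in culture for 3 days with the cytokine BAFF and the Notch ligand DL1, and cells that were Thy1.1-, F4/80-, CD11b-, B220+, CD21+ and CD1d+ were sorted. The TrB_KO and TrB_WT groups are transitional B cells sorted from the spleen of LSD1-knockout and wild-type mice with no stimulation, as Thy1.1-, F4/80-, CD11b-, B220+ and CD93+ cells. Culture, stimulation and sort therefore all differ between eMZB and TrB, and their parts in a difference cannot be told apart. No source used here gives the knockout allele, a Cre driver, the age of the mice or the number of animals behind a library.

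NF-kB proteins are dimers of Rel family subunits that wait in the cytoplasm bound to IkB inhibitors. When a receptor switches on the IKK kinase complex, IkB is phosphorylated and degraded, and the dimers enter the nucleus and bind kB sites in their target genes. Several of those targets encode the inhibitors themselves, so that the response limits itself. In B cells the pathway runs downstream of the B cell receptor, CD40, Toll-like receptors and, mainly through its alternative arm, the BAFF receptor, and it is known for its part in the survival and maturation of peripheral B cells.

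The kB motif can be seen in the promoters of several of these genes in the RefSeq sequences of GRCm38.p6, the build also known as mm10. A window from 250 bases before to 50 bases after a start site was held for 9 of the 10 genes (12 windows, since some genes have several start sites), and each was searched on both strands for the NF-kB consensus of 10 bases. Of the 9 genes, 6 had a match in at least 1 window (Rel, Nfkbia, Nfkbie, Nfkbid, Bcl3 and Tnfaip3), and 6 of the 12 windows held 1, against 2779 of 32851 windows of all genes (8.46%). The windows of Rela, Nfkbib and Traf1 held no match. The 30-base stretches around the matches are printed with the match in capitals, read 5′ to 3′ on the strand of the gene. The genes were chosen by name, and several are known NF-kB targets, so their higher share of windows with a match is no test. The matches are alike by the rule of the search. In Rel, 2 matches overlap by all but 1 base.
Rel, 92 bases before the start: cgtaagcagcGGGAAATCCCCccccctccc
Nfkbia, 29 bases before the start: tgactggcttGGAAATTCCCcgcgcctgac
Nfkbie, 106 bases before the start: gcagcaaacaGGGGGATTCCggaggggcgg
Nfkbid, 226 bases before its second start: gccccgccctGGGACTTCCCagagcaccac
Nfkbid, 181 bases before its second start: gggccgaacaGGAATTCCCCgtgcgcgggg
Bcl3, 2 bases after the start: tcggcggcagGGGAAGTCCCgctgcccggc
Tnfaip3, 125 bases before the start: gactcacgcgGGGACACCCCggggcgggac
Tnfaip3, 12 bases before the start: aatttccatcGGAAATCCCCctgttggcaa

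The whole 250 bases before the start follow for the classical inhibitors whose scaled levels moved in opposite directions in the knockout, Nfkbia and Nfkbie, and for Traf1, the gene with the widest change. Capitals again mark a match to the consensus. A match describes letters, not a bound site, and none of these libraries measured binding.
Nfkbia, chr12:55492648-55492897, minus strand: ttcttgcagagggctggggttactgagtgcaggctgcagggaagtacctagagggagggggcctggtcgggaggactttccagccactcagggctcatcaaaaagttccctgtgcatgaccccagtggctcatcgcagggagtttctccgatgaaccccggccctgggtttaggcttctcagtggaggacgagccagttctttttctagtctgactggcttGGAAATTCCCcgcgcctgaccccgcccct
Nfkbie, chr17:45555450-45555699, plus strand: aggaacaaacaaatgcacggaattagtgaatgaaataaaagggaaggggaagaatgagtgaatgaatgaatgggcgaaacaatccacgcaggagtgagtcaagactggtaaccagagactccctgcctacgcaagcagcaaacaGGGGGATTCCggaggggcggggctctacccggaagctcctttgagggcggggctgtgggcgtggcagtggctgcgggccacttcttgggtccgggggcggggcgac
Traf1, chr2:34961773-34962022, minus strand: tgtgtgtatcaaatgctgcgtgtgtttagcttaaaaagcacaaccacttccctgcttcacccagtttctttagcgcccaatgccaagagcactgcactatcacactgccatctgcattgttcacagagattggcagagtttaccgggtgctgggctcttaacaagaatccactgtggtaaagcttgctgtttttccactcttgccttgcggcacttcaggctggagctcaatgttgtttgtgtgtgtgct

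Levels below are FPKM (fragments per kilobase of gene length and M library reads, where M is mega) as the authors deposited them, divided by 1 factor per library that levels the median gene. The factors ran from 0.619 to 2.16. They were needed because the share of library reads that fell in listed genes was 27.8 to 41.7% in the eMZB libraries and 16.7 to 20.9% in TrB libraries other than TrB_KO replicate 3, where it was 61.6%. That library also had 285 genes at 0, against 30 to 52 in the other TrB libraries. Reads in listed genes ran from 1.96 to 8.78 M per library, and the 10 genes themselves had from 11 to 2458 reads. Kdm1a, the targeted gene, stood at 2.51 to 2.64 scaled FPKM in eMZB_KO and 4.63 to 8.55 in eMZB_WT, and at 2.54 to 3.31 in TrB_KO and 3.44 to 8.45 in TrB_WT. The lowest value in each wild-type range came from the library labelled replicate 3, which was closer to the knockouts than its partners were. Some results, not all, are therefore also given without these libraries. Among the sorting markers, Cd93 was at 0.691 to 1.09 in eMZB and 4.13 to 5.99 in TrB, and Cr2, which encodes CD21, at 60.3 to 70.0 in eMZB and 7.72 to 15.1 in TrB. Cd1d1, the other marker of the eMZB sort, averaged 27.5 in eMZB_KO and 22.4 in TrB_KO (log2 difference 0.28, limma adjusted p 0.0431), and 22.6 in eMZB_WT and 22.1 in TrB_WT (0.04, adjusted p 0.796). All 6 B cell markers were listed; their sum was 1064 to 1277 scaled FPKM in eMZB and 1766 to 2327 in TrB. No neutrophil or NK cell marker was listed, and of the 8 T cell markers only Lck was. The 5 of 8 macrophage and monocyte markers that were listed summed to 56.2 to 63.4 in eMZB_KO and 16.6 to 27.6 in eMZB_WT, and to 52.3 to 68.8 in TrB_KO and 12.6 to 15.1 in TrB_WT, while Csf1r, Lyz2 and Cd14 were not listed. Most of that was Ly6c2: the other 4 markers summed to 9.80 to 11.5 in eMZB_KO and 5.69 to 7.32 in eMZB_WT, and to 5.96 to 9.34 in TrB_KO and 5.58 to 6.86 in TrB_WT. The 4 of 5 plasma cell markers that were listed summed to 22.5 to 30.7 in eMZB_KO and 38.5 to 86.1 in TrB_KO, and to 37.1 to 44.2 in eMZB_WT and 19.8 to 42.1 in TrB_WT. In bulk RNA, fewer cells that express a gene and less RNA per cell cannot be told apart. P-values measure the spread between libraries, since nothing states that each came from a separate animal.

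The 10 transcripts spanned a wide range, with Nfkbia and Nfkbie at the top of it and the inhibitor genes Nfkbib and Tnfaip3 among the lower ones in all 4 groups. In eMZB, Nfkbia averaged 39.3 ± 2.80 scaled FPKM in eMZB_KO and 39.97 ± 1.29 in eMZB_WT (SD, n = 3 each), and its libraries overlapped those of Nfkbie, at 37.9 ± 1.35 in eMZB_KO and 37.8 ± 1.76 in eMZB_WT. Below a gap, Nfkbid, Rela, Bcl3 and Rel overlapped from neighbour to neighbour, then came Traf1 and Nfkbib together, and at the foot Tnfaip3 and Nfkb1 together. In TrB the order differed at both ends. Nfkbia stood alone at the top, at 48.3 ± 3.56 in TrB_KO and 45.4 ± 2.82 in TrB_WT, with no overlap with the next gene. Nfkbie and Nfkbid followed with overlapping libraries, then Rel and Rela, also overlapping. Bcl3, Nfkb1, Nfkbib and Tnfaip3 came lower, and Traf1 was last, clear of its neighbour. All these levels are per length, but how well they compare between genes was not tested. Reads of Nfkbib and Bcl3 cannot be told apart from those of genes that overlap their exons, as given below.

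**Figure D1:**
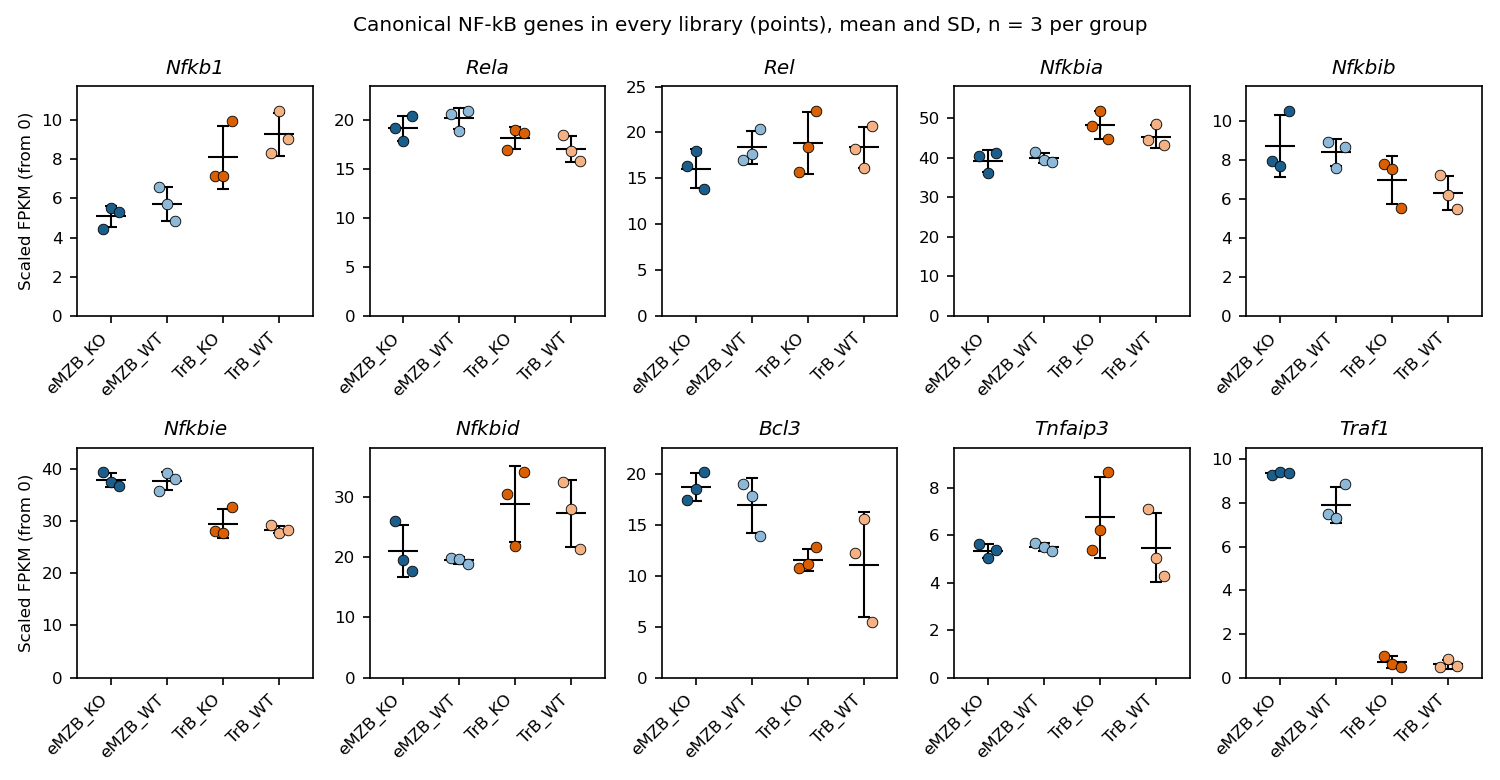
Scaled FPKM (y axis, linear from 0, own scale per gene) of the 10 genes in each library (points), with the group mean and SD over 3 libraries (lines). The eMZB points of Traf1 lie at 7.32 to 9.41 and its TrB points at 0.477 to 1.01; for Nfkb1 every eMZB point lies below every TrB point on this scale (as deposited, the wild-type difference is 0.14), and for Nfkbie above.

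Traf1 had the widest difference between cell types. TRAF1 is an adaptor of the TNF receptor superfamily and a known NF-kB target that binds TRAF2 and keeps survival signals going; its gene (Entrez 22029) lies at chr2:34941750-34961812. It measured 9.29, 9.41 and 9.37 scaled FPKM in eMZB_KO, against 1.01, 0.615 and 0.477 in TrB_KO. In the wild type it measured 7.51, 7.32 and 8.86 in eMZB_WT, against 0.484, 0.839 and 0.506 in TrB_WT. All 6 eMZB libraries were thus far above all 6 TrB libraries. The ratio of means was 13.4 between eMZB_KO and TrB_KO and 13.0 between eMZB_WT and TrB_WT. On the log2(scaled FPKM + 1) scale, which understates low genes, the differences were 2.62 ± 0.13 (SE, limma adjusted p 1.4e-07) in the knockout and 2.47 ± 0.13 (adjusted p 1.8e-07) in the wild type; with 0.1 in place of 1 they were 3.62 and 3.53. The TrB values rest on few reads, 11 to 44 per library, against 164 to 682 in eMZB. The table lists genes that reach 1 FPKM in at least 3 libraries, and Traf1 as deposited was at 0.30 to 1.03 FPKM in TrB, so it is listed through the eMZB groups and had to differ to some degree.

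Among the Rel subunits, Nfkb1 was lower in eMZB on scaled FPKM, though not in the wild type on FPKM as deposited, and the others were not called. Nfkb1 (Entrez 18033, chr3:135584655-135691969) encodes p105, the precursor of the DNA-binding subunit p50, which also acts as an IkB. It measured 4.45, 5.51 and 5.28 scaled FPKM in eMZB_KO, against 7.15, 7.17 and 9.97 in TrB_KO. In the wild type it measured 6.57, 5.71 and 4.85 in eMZB_WT, against 8.32, 10.5 and 9.02 in TrB_WT. Neither pair of groups overlapped, and the ratio of means was 0.627 in the knockout and 0.616 in the wild type. The log2 differences were -0.57 ± 0.14 (SE, limma adjusted p 0.00987) and -0.62 ± 0.14 (adjusted p 0.00672). The direction depends on the library scaling: on FPKM as deposited the wild-type difference was 0.14 (adjusted p 0.781), where the median of all genes itself moved by 0.67, so that Nfkb1 stood 0.53 below that median (-0.53); in the knockout the deposited difference was -0.33 and its call was lost (adjusted p 0.861), where the median moved by 0.23 and Nfkb1 stood at -0.56 relative to it. Without both libraries labelled wild-type replicate 3 the wild-type difference was -0.54 (adjusted p 0.0488), and without TrB_KO replicate 3 the knockout difference was -0.43 (adjusted p 0.0311).

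Rela and Rel encode p65 and c-Rel, the subunits that carry the transactivation domain, c-Rel being the one mostly found in lymphoid cells. Rela (Entrez 19697, chr19:5637442-5648134) ran from 17.9 to 20.4 scaled FPKM in eMZB_KO and from 16.9 to 19.0 in TrB_KO, which overlap, and from 18.9 to 20.9 in eMZB_WT and from 15.8 to 18.4 in TrB_WT, which do not. The wild-type difference of 0.23 ± 0.09 missed the threshold (SE, limma adjusted p 0.0670), as did the knockout difference of 0.07 (adjusted p 0.604); without TrB_WT replicate 1 the wild-type one was called (0.29, adjusted p 0.0466). Rel (Entrez 19696, chr11:23736847-23770969) ran from 13.8 to 18.0 in eMZB_KO and from 15.7 to 22.4 in TrB_KO, and from 17.0 to 20.4 in eMZB_WT and from 16.2 to 20.7 in TrB_WT. Its libraries overlapped in both comparisons, with log2 differences of -0.21 (limma adjusted p 0.297) in the knockout and 0.00 (adjusted p 0.989) in the wild type.

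On scaled FPKM the classical IkB genes moved apart, with Nfkbie higher in eMZB in both comparisons and Nfkbia lower in the knockout one. Nfkbie encodes IkB-epsilon, an inhibitor of p65 and c-Rel dimers in lymphocytes, and its gene (Entrez 18037) lies at chr17:45555700-45563169. It measured 39.4, 37.5 and 36.8 scaled FPKM in eMZB_KO, against 28.1, 27.7 and 32.7 in TrB_KO. In the wild type it measured 35.8, 39.3 and 38.1 in eMZB_WT, against 29.2, 27.8 and 28.2 in TrB_WT. Every eMZB library exceeded every TrB library, by a ratio of means of 1.29 in the knockout and 1.33 in the wild type. The log2 differences were 0.36 ± 0.08 (SE, limma adjusted p 0.00546) and 0.40 ± 0.08 (adjusted p 0.00284). On FPKM as deposited the direction held, but the knockout call was lost (adjusted p 0.596).

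Nfkbia (Entrez 18035, chr12:55489409-55492647) encodes IkB-alpha, the inhibitor that is resynthesised fastest after stimulation. It measured 40.5, 36.1 and 41.3 scaled FPKM in eMZB_KO, against 48.1, 51.9 and 44.8 in TrB_KO. In the wild type it measured 41.4, 39.4 and 39.0 in eMZB_WT, against 44.4, 48.5 and 43.1 in TrB_WT. Neither pair of groups overlapped, and the eMZB libraries were the lower ones in both. The ratio of means was 0.813 in the knockout, where the log2 difference of -0.29 ± 0.08 passed the threshold (SE, limma adjusted p 0.02), and 0.881 in the wild type, where that of -0.18 ± 0.08 did not (adjusted p 0.133); on FPKM as deposited these differences were 0.010 and 0.67, which is -0.22 and 0.00 relative to the median of all genes. Library numbers were taken to pair TrB_KO with eMZB_KO from correlations given below, though the labels do not say what a number shares. A limma fit of these groups with the number as a replicate block gave -0.29 with adjusted p 0.0916. The block in the fit of all 12 libraries kept the call (adjusted p 0.0301). The knockout call was also lost without TrB_KO replicate 2 (-0.24, adjusted p 0.081) and without eMZB_KO replicate 2 (-0.23, adjusted p 0.0931). Nfkbib (Entrez 18036, chr7:28758251-28766644), which encodes IkB-beta, ran from 7.69 to 10.5 in eMZB_KO and from 5.54 to 7.77 in TrB_KO, and from 7.60 to 8.89 in eMZB_WT and from 5.49 to 7.22 in TrB_WT. The wild-type groups did not overlap, but neither difference was called (0.29, adjusted p 0.168, in the knockout and 0.36, adjusted p 0.0809, in the wild type), though the wild-type one was called without TrB_KO replicate 3 (adjusted p 0.0411). Its exons overlap those of Ccer2 and Sirt2 on the other strand, and the library kit does not mark strand, so their reads cannot be told apart.

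Shares within a family do not depend on the library scaling, and those of Nfkb1, Rela, Nfkbia and Nfkbie did not overlap between the cell types. Of the summed FPKM of Nfkb1, Rela and Rel, Nfkb1 held 12.6 ± 1.27% in eMZB_KO, 13.0 ± 2.23% in eMZB_WT, 17.9 ± 1.73% in TrB_KO and 20.8 ± 2.92% in TrB_WT (SD, n = 3 each). Over single libraries that was 10.5 to 14.9% in eMZB and 16.1 to 24.1% in TrB, with no overlap. Rela held 43.2 to 51.6% in eMZB and 34.6 to 42.6% in TrB, again with no overlap, while Rel overlapped at 35.0 to 44.2% and 37.2 to 45.5%. Of the summed FPKM of Nfkbia, Nfkbib and Nfkbie, Nfkbia held 44.4 to 48.1% in eMZB and 54.0 to 59.6% in TrB. Nfkbie held 44.2 ± 2.39% in eMZB_KO and 34.8 ± 3.98% in TrB_KO, and 43.9 ± 2.02% in eMZB_WT and 35.5 ± 1.62% in TrB_WT; neither gene's shares overlapped between cell types. Nfkbib held 8.80 to 11.9% in eMZB and 6.67 to 9.25% in TrB, which overlap. The sum of classical IkB transcripts per Rel transcript overlapped, at 1.86 to 2.24 in eMZB and 1.63 to 2.11 in TrB. Shares within a set of 3 genes are tied, since a share rises where another falls, and Rela itself was not called. These shares are given as a description, with no test and no background of other sets. For single genes, scaled levels in eMZB and TrB separated for 22.7% (higher) and 21.2% (lower) of all genes in the knockout. In the wild type they did so for 21.8% and 23.3%. Those percentages compare 3 libraries with 3 within a genotype. They are no matching background for the shares, which compare 6 libraries with 6.

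**Figure D2:**
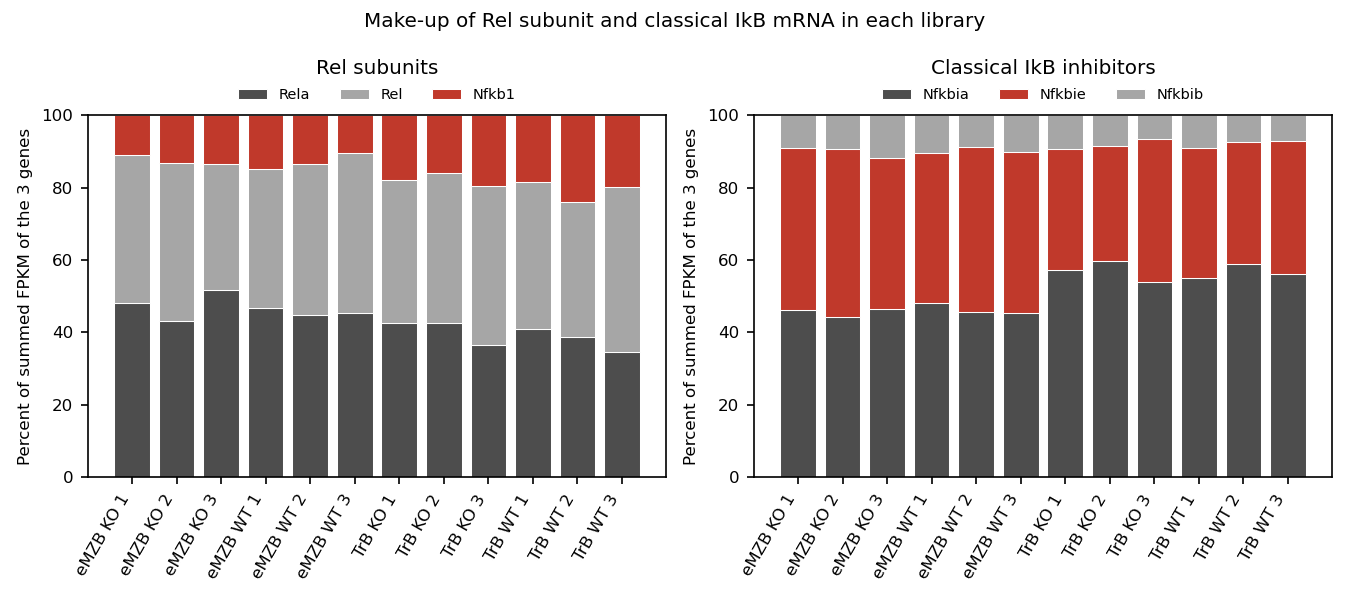
Percent of the summed FPKM of the 3 Rel subunit genes (left) and the 3 classical IkB genes (right) held by each gene (y axis) in each library (x axis). Nfkb1 holds 10.5 to 14.9% in eMZB and 16.1 to 24.1% in TrB, and Nfkbia holds 44.4 to 48.1% in eMZB and 54.0 to 59.6% in TrB.

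The atypical, nuclear IkB genes had wider spread. Bcl3 (Entrez 12051, chr7:19808462-19822824) encodes a nuclear partner of p50 and p52 dimers. It measured 17.4, 18.5 and 20.2 scaled FPKM in eMZB_KO, against 10.7, 11.2 and 12.8 in TrB_KO, with no overlap. In the wild type it measured 19.0, 17.8 and 13.9 in eMZB_WT, against 12.2, 15.6 and 5.46 in TrB_WT, where the lowest value came from the library labelled replicate 3 and the groups overlapped. The ratio of means was 1.61 in the knockout and 1.52 in the wild type, and neither log2 difference was called (0.65 ± 0.26, limma adjusted p 0.0846, and 0.66 ± 0.26, adjusted p 0.0775; SE). The knockout difference was called in 8 of 24 alternative fits. Among them were the replicate block on these groups alone (0.65, limma adjusted p 0.0035) and the fit without both libraries labelled wild-type replicate 3 (adjusted p 0.00117). Those libraries share their estimate of spread with the knockout groups. Without TrB_WT replicate 3 the wild-type difference was 0.26 (adjusted p 0.199), and without TrB_WT replicate 2 it was 0.94 (adjusted p 0.0145); on FPKM as deposited it was 1.44 and called (adjusted p 0.0236), or 0.77 relative to the median of all genes. An antisense gene, Gm16175, overlaps the exons of Bcl3, and reads of the pair cannot be told apart.

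Nfkbid (Entrez 243910, chr7:30421731-30428749) encodes IkB-NS, another nuclear IkB, which B cells of the marginal zone are known to need in mice. It measured 25.9, 19.5 and 17.7 scaled FPKM in eMZB_KO, against 30.5, 21.8 and 34.1 in TrB_KO. In the wild type it measured 19.9, 19.7 and 18.8 in eMZB_WT, against 32.5, 27.9 and 21.4 in TrB_WT. The wild-type groups did not overlap and the knockout groups did. Ratios of means were 0.730 in the knockout and 0.714 in the wild type, and neither difference was called (-0.43, limma adjusted p 0.102, and -0.45, adjusted p 0.0875); the knockout difference was called without TrB_KO replicate 2 (-0.61, adjusted p 0.0269) and without eMZB_KO replicate 1 (-0.58, adjusted p 0.048). The wild-type difference was called without TrB_WT replicate 3 (-0.61, adjusted p 0.0286), with array weights (-0.55, adjusted p 0.0282) and in fits of its 2 groups alone (adjusted p 0.0479, and 0.0271 with a replicate block), and on FPKM as deposited it was 0.39. Tnfaip3 (Entrez 21929, chr10:19000910-19015410) encodes A20, the ubiquitin-editing enzyme that shuts off signalling to IKK. It ran from 5.04 to 5.62 in eMZB_KO and from 5.37 to 8.67 in TrB_KO, and from 5.33 to 5.68 in eMZB_WT and from 4.30 to 7.10 in TrB_WT. All 4 ranges overlapped their counterparts, and neither difference was called (-0.27, adjusted p 0.260, and 0.03, adjusted p 0.913).

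Across the 10 genes, 4 were called between eMZB_KO and TrB_KO, Traf1 and Nfkbie higher and, on scaled FPKM, Nfkb1 and Nfkbia lower, against 27.4% of all 9842 genes (2697; 14.2% higher and 13.2% lower). Between eMZB_WT and TrB_WT 3 were called, Traf1 and Nfkbie higher and, on scaled FPKM, Nfkb1 lower, against 27.4% of all genes (2696; 14.7% higher and 12.7% lower). Traf1, which is listed through eMZB, is in both of these counts and in the counts of separated libraries below. A replicate block on eMZB_KO and TrB_KO alone ended the call of Nfkbia and called Bcl3. These shares of called genes are near the background, so the count is no result about the family. Libraries did not overlap for 5 of the 10 genes in the knockout (3 higher and 2 lower) and for 7 in the wild type (4 higher and 3 lower); over all genes the groups did not overlap for 22.7% higher and 21.2% lower in the knockout and 21.8% higher and 23.3% lower in the wild type. The median log2 difference of the 10 genes was -0.07 in the knockout and 0.13 in the wild type, beside -0.01 and -0.00 over all genes. The knockout and wild-type comparisons share no library. The summed B cell markers were lower in eMZB, as given above, and Cxcl12, the 1 of 5 stromal markers that was listed, was at 1.83 to 22.1 scaled FPKM in eMZB and 0.00905 to 0.294 in TrB; of the plasma cell markers, Jchain (-3.26) and Sdc1 (-0.72) were called lower in the knockout, and Xbp1 (0.60) and Prdm1 (0.65) higher in the wild type. As deposited, Cxcl12 and Prdm1, like Traf1, reach 1 FPKM in at least 3 libraries only through eMZB. Their rises given here were therefore fixed to some degree. The part of these markers in the differences was not tested.

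LSD1 loss moved none of the 10 genes past the threshold in either cell type. The same limma fit did not call Kdm1a, the targeted gene, either (-0.87, adjusted p 0.249, in TrB and -1.10, adjusted p 0.149, in eMZB). The absence of a call is therefore no sign of absent change. In TrB_KO against TrB_WT, 0 were called by limma, 0 had an unadjusted p under 0.05, and adjusted p ran from 0.603 to 0.959, while 0.498% of all genes were called (49; 0.386% higher and 0.112% lower). The log2 differences ran from -0.18 for Nfkb1 to 0.26 for Tnfaip3, and the 95% intervals of the 10 genes lay between -0.49 (Nfkb1) and 0.72 (Bcl3). No gene separated the groups of 3 in TrB; over all genes 6.14% did so higher and 4.37% lower. In eMZB_KO against eMZB_WT, 0 were again called and 0 had an unadjusted p under 0.05, while 0.406% of all genes were called (40; 0.335% higher and 0.0711% lower). Differences ran from -0.19 for Rel to 0.22 for Traf1, with intervals between -0.49 (Rel) and 0.71 (Bcl3). Traf1 was the 1 gene whose eMZB groups did not overlap, at 9.35 ± 0.0612 scaled FPKM in eMZB_KO and 7.90 ± 0.840 in eMZB_WT (SD, n = 3 each; ratio 1.18; limma adjusted p 0.9999); over all genes 9.13% separated higher and 9.29% lower. Voom on recovered reads also called 0 of the 10 in either cell type. Of the macrophage and monocyte markers 1 of the 5 listed, Ly6c2, was called in each cell type (higher in the knockout). Flt3, the 1 of 6 dendritic cell markers that was listed, was at 4.47 to 5.62 scaled FPKM in eMZB_KO and 0.669 to 1.05 in eMZB_WT. Flt3 is listed through eMZB_KO, where it was at 4.96 to 8.22 FPKM as deposited, and had to differ to some degree. The part of Ly6c2 and Flt3 was not tested.

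The effect of LSD1 loss was not shown to differ between cell types for any of the 10 genes. The difference between the eMZB and the TrB effect ran from -0.30 to 0.15 on the log2 scale, with 0 genes called by limma and 0 with an unadjusted p under 0.05, against 0.0102% of all genes called (1). The smallest unadjusted p was 0.213, for Rela in the limma fit across all genes, and adjusted p ran from 0.857 to 0.996. The 95% intervals lay between -0.81 and 0.78, both for Bcl3.

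**Figure D3:**
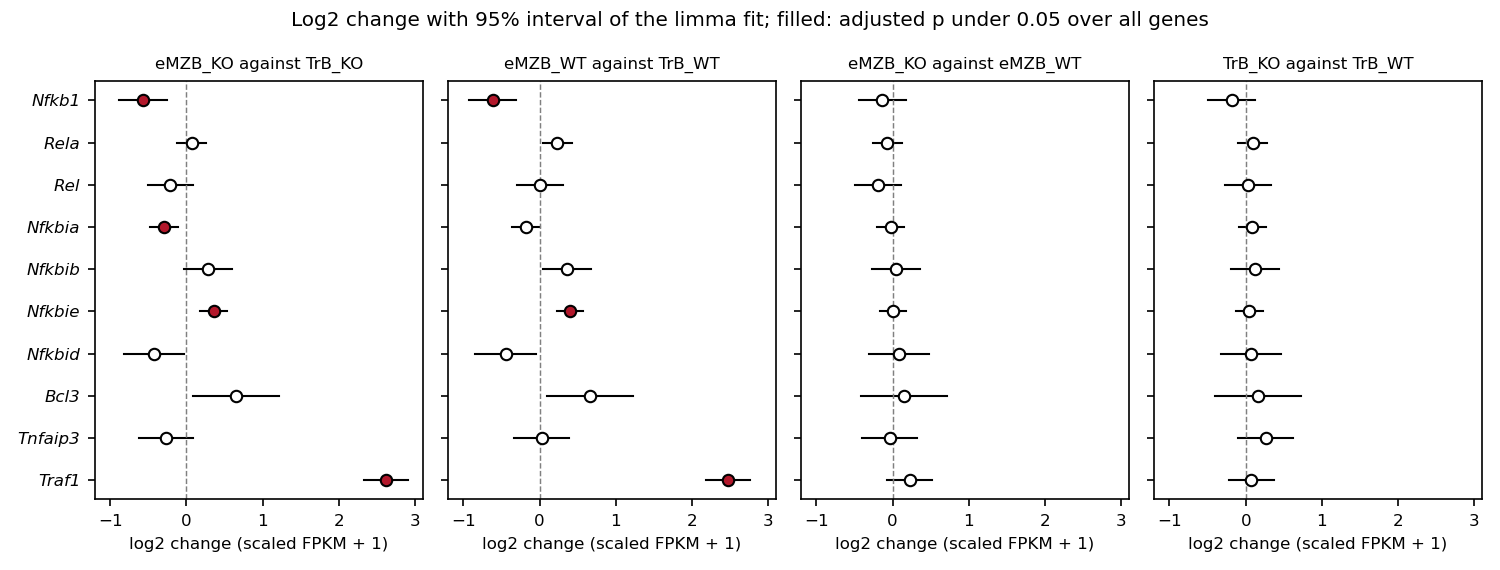
Log2 difference of scaled FPKM + 1 (x axis) for each of the 10 genes (y axis) with its 95% interval from limma, in 4 comparisons; filled points have adjusted p under 0.05. Traf1, Nfkbie and Nfkb1 are filled in both comparisons of eMZB with TrB and Nfkbia in the knockout, and no point is filled in the comparisons of knockout with wild type. On FPKM as deposited, the Nfkb1 point of the wild type would lie at 0.14 and the Nfkbia points at 0.010 (knockout) and 0.67 (wild type).

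The other genes of the pathway were read from lists of receptors and adaptors, kinases, other inhibitors and targets, all on scaled FPKM. Their counts stand against the 27.4% of all genes called in each comparison of eMZB with TrB, 14.2% higher and 13.2% lower in the knockout and 14.7% higher and 12.7% lower in the wild type, and nothing particular to a list is read from them. Of the 3 other Rel and IkB family genes, 1 was called between eMZB_WT and TrB_WT: Nfkb2, which encodes p100 and p52 of the alternative arm, was higher by 0.54 (limma adjusted p 0.00808). It was at -0.12 between eMZB_KO and TrB_KO (adjusted p 0.532), and the difference between these effects, -0.66, was not called (adjusted p 0.511). Of the 13 genes of signal input, 2 were higher and 3 lower in eMZB_KO against TrB_KO, and 4 higher and 3 lower in eMZB_WT against TrB_WT. Cd40, the receptor for T cell help, fell by 1.01 in the knockout (adjusted p 9.9e-06) and by 0.62 in the wild type (adjusted p 0.000461). Traf5, an adaptor of that receptor, fell by 0.77 in the knockout and 0.49 in the wild type. The kinases Irak1 (0.48 and 0.65) and Ripk1 (0.33 and 0.81) rose in both.

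Of the 12 genes of the IKK complex and its activators, 0 were higher and 3 lower in eMZB_KO against TrB_KO, and 2 higher and 2 lower in eMZB_WT against TrB_WT. Tab1, an adaptor of the kinase TAK1, fell by 0.87 in the knockout (limma adjusted p 0.00184) and was at -0.46 in the wild type (adjusted p 0.0552). Sharpin, a subunit of the linear ubiquitin ligase, fell by 0.29 in the knockout and 0.33 in the wild type. Ikbkg, which encodes NEMO, fell by 0.45 in the knockout (limma adjusted p 0.0180) and was at -0.11 in the wild type (adjusted p 0.553). Chuk, which encodes IKK-alpha, rose by 0.36 in the wild type (adjusted p 0.0130) and was at 0.16 in the knockout (adjusted p 0.245). Of 12 other negative regulators, 2 were higher (N4bp1 by 0.47 and Tnip2 by 0.66) and 1 lower (Tax1bp1, by 0.33) in the knockout, where N4bp1 is listed through eMZB, and 0 were called in the wild type by limma, where 2 had an unadjusted p under 0.05.

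Of 25 known NF-kB targets, 20 were listed, and in each comparison of eMZB with TrB 7 were higher and 2 lower; Bcl2a1a, 1 of the 7 in the knockout, is listed through eMZB and had to differ to some degree. Their median was 0.18 in the knockout and 0.24 in the wild type, beside -0.01 and -0.00 over all genes. Myc, a regulator of growth, rose by 1.34 in the knockout (limma adjusted p 1.5e-06) and 1.38 in the wild type (adjusted p 1.1e-06). Cd83, an activation antigen, rose by 0.98 and 1.17, and the cytokine subunit gene Ebi3 by 1.02 and 1.17. The survival genes Bcl2a1b (2.34 and 2.23) and Bcl2a1d (2.49 and 1.96) rose most, but their copies are near-identical and reads may be split between them. Called lower were Birc3 (-0.39) and Il4i1 (-0.48) in the knockout, and Ccnd2 (-0.43) and Gadd45b (-0.40) in the wild type. Of the 9 immediate early genes listed, which also respond to cell handling, 3 were higher and 4 lower in each comparison: Jun, Nr4a1 and Dusp1 rose, and Egr1, Btg2, Zfp36 and Junb fell. Dusp1 had 0 to 28 reads in the TrB libraries and, like Traf1, is listed through eMZB. Their part in the differences above was not tested. Between knockout and wild type, limma called 1 target in TrB (Myc, higher by 0.53, adjusted p 0.0392) and 0 in eMZB, where Myc was at 0.49 (adjusted p 0.0615). In eMZB 8 targets had an unadjusted p under 0.05, beside 530 of all 9842 genes. All were higher in the knockout except Il4i1 (-0.34) and Ltb (-0.32). In TrB the number was also 8, all higher, beside 975 of all genes. The target median was 0.26 in TrB and 0.14 in eMZB, beside 0.01 and -0.00 over all genes.

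**Figure D4:**
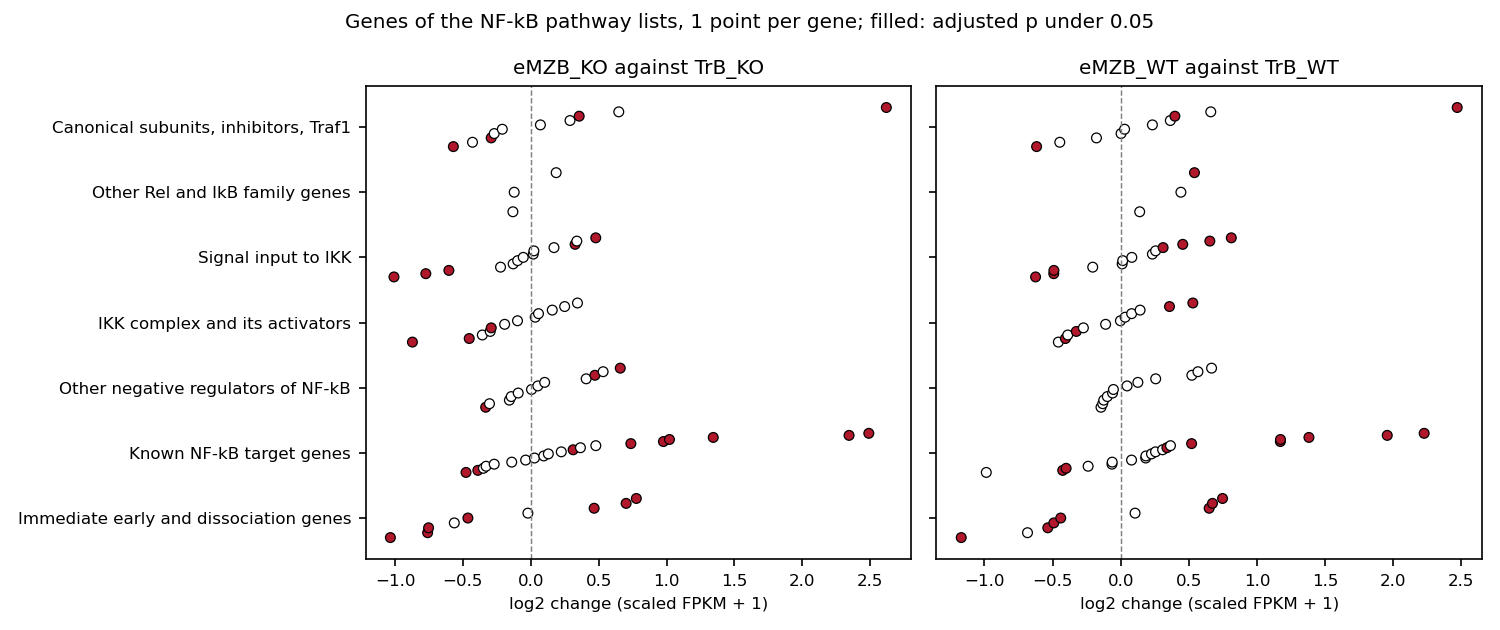
Log2 difference of scaled FPKM + 1 (x axis) of each gene (point) of the pathway lists (y axis), eMZB_KO against TrB_KO on the left and eMZB_WT against TrB_WT on the right; filled points have adjusted p under 0.05. The widest positive differences among the targets are those of Bcl2a1b and Bcl2a1d, at 1.96 to 2.49, beside Traf1 at 2.62 and 2.47.

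Traf1, Bcl3 and Nfkb1 varied most over the 4 groups, with SDs of the group means of 1.47, 0.388 and 0.356 on the log2 scale. Genes with a like profile over the 12 libraries were sought among 4384 genes with a mean of at least 5 scaled FPKM, by the root mean square difference of centred log2 values. Closest to Traf1 were Mthfd2, a mitochondrial folate enzyme, at 0.223, Bcl2a1b at 0.248 and I830077J02Rik at 0.267, where the root mean square of the Traf1 profile itself was 1.28. Closest to Bcl3 were Prpsap1 at 0.111, Smarca5 at 0.120 and Ldb1 at 0.125, against 0.458 for Bcl3 itself. Closest to Nfkb1 were Map3k1 at 0.118, the B cell transcription factor gene Ebf1 at 0.124 and Rgs14 at 0.128, against 0.343 for Nfkb1 itself. The profiles of Traf1 and Nfkb1 mainly follow the difference between eMZB and TrB, which many genes share. That of Bcl3 also follows, in large part, its low value in TrB_WT replicate 3, at 5.46 scaled FPKM. Genes near Bcl3 were not sought without that library.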

How the data were processed

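Per the labels' protocols, SMART-Seq v4 cDNA was made from 2000 sorted cells per library and sequenced as Nextera XT libraries, which do not mark strand. STAR and mm10 are named in the submitters' processing notes; no source used here names the counting program or annotation. The authors' values are FPKM per gene, deposited as 1 table of 9842 genes, each reaching 1 FPKM in at least 3 libraries; 9833 Entrez IDs matched a symbol and 9 did not, and 0 value columns were left unused. Whole reads were recovered from the deposited FPKM for all 9842 genes (100% of values whole within 0.02 reads), with totals of 7.24 to 19.4 M reads a library, and served for depth and for a count model as an alternative. Without molecular identifiers, PCR copies count as reads, so the read numbers cover counting error only. No replicates were duplicates: they differed by 2.57 to 18.6 times counting noise.

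FPKM were divided by median-of-ratios factors over 9446 genes, and log2(value + 1) was fitted with limma 3.58.1 (R 4.3.3; lmFit, eBayes with trend) on all 12 libraries and 4 group means. P-values were Benjamini-Hochberg adjusted over 9842 genes, and those under 0.05 called. The step was tested on simulated data. Other scalings, pseudocounts, filters, models, a replicate block and left-out libraries were tried. Library numbers were taken to pair groups where deviations of all 3 same-numbered libraries correlated above 0.1: this held for TrB_KO with eMZB_KO (0.161, 0.106 and 0.292) and for no other groups compared. The labels give no batch.

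All 10 genes are named throughout, with up to 4 genes per pathway list by smallest adjusted p and the 3 nearest profiles of the 3 most variable of the 10. Ebi3, Nr4a1, Junb, Bcl2a1a, Birc3, Il4i1, Ccnd2, Gadd45b and Ltb fall outside that rule and were named after their values were seen. A gene of the signal input list is counted but not reported here by name. The genes and lists were chosen with earlier results of these data known. Positions are of mm10 in the RefSeq annotation, counted from 1.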

Additional observations from a re-analysis of the deposited data

How the results depend on the processing

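With 3 libraries a group, low read numbers limit Traf1 in TrB, and library scaling limits every level. Fits left out each library in turn, changed the scaling, pseudocount, filter or model, or added a replicate block; the block on the 2 groups compared, and leaving out TrB_KO replicate 3 with both libraries labelled wild-type replicate 3, were chosen after seeing the data. The 10 genes had 0 calls for LSD1 loss in either cell type and for the interaction under every alternative run. Between eMZB_KO and TrB_KO the count of 4 became 1 on FPKM as deposited (Traf1), and 3 to 5 without 1 library. Between eMZB_WT and TrB_WT the count of 3 became 5 with the replicate block on 2 groups and 5 without those 3 libraries (Nfkbid and Bcl3 gained), and 3 to 4 without 1 library. In the knockout the block on 2 groups ended the call of Nfkbia and called Bcl3, as given above, and changed no other call there. Over the alternatives the calls among all genes were 1 to 125 for LSD1 loss in TrB (49 in the main setting), 15 to 182 in eMZB (40), 460 to 3967 for the cell types in the knockout (2697), 1855 to 3445 in the wild type (2696) and 0 to 18 for the interaction (1).

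Some differences changed sign; the cause was not tested. As deposited, Nfkb1 was at 0.40 and Nfkbia and Tnfaip3 at 0.044 and 0.025 for LSD1 loss (Nfkb1 in TrB, the others in eMZB); for the cell types Nfkb1, Nfkbia and Nfkbid were at 0.14, 0.67 and 0.39 in the wild type, and Rel and Nfkbia at 0.071 and 0.010 in the knockout. With upper-quartile scaling, Rel and Nfkbie were at -0.032 and -0.010 for LSD1 loss in TrB, and Rel and Tnfaip3 at -0.053 and -0.021 for the wild-type cell types. With array weights, Nfkbie, Nfkbid and Bcl3 were at -0.018, -0.25 and -0.11 in TrB, Nfkbib at -0.017 in eMZB and Tnfaip3 at -0.065 for the wild-type cell types. With voom on recovered reads Traf1 was at -0.10 in TrB. Without both libraries labelled wild-type replicate 3, Nfkbid and Bcl3 were at -0.087 and -0.24 in TrB and Tnfaip3 at -0.084 for the wild-type cell types. Leaving out TrB_KO replicate 3 as well gave Rel -0.014, Nfkbie -0.029, Nfkbid -0.22, Bcl3 -0.31 and Tnfaip3 -0.041 in TrB, and Tnfaip3 -0.084 for the wild-type cell types. Without 1 library, LSD1 loss in TrB ranged over -0.10 to 0.14 for Rel, -0.025 to 0.090 for Nfkbie, -0.087 to 0.25 for Nfkbid, -0.24 to 0.44 for Bcl3, 0.092 to 0.43 for Tnfaip3 and -0.052 to 0.17 for Traf1; in eMZB over -0.063 to 0.032 for Nfkbia, -0.090 to 0.11 for Nfkbib, -0.029 to 0.035 for Nfkbie and -0.065 to 0.20 for Nfkbid; and the wild-type cell types over -0.081 to 0.089 for Rel and -0.10 to 0.20 for Tnfaip3.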
